A study of Mus musculus with 9 samples.

Results

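To ask which chromatin is called open in cells that lost Tbx1 and which in the Mesp1 lineage, the ATAC-seq peak lists of 3 Tbx1-Cre cKO libraries were set against those of 3 Mesp1-Cre Ctrl libraries, 6 of the 9 libraries of the series. ATAC-seq maps accessible DNA by letting a transposase insert sequencing adapters into it, and a peak is an interval where insertions pile up. A merged region was any stretch covered by a peak of at least 1 of the 6 lists on chromosomes 1 to 19 and X, and a library called a region where one of its peaks overlapped it by at least 1 bp. Of 52115 merged regions, 191 were called in all 3 cKO and no Mesp1-Cre library (cKO-only) and 1939 in all 3 Mesp1-Cre and no cKO library (Mesp1-only). Both kinds lay mostly far from promoters. Most cKO-only regions were also called in Tbx1-Cre control cells, whereas Mesp1-only regions held GATA and MEIS letters more often than the average region. By the nearest TSS, Mesp1-only regions fell to developmental genes such as Hand2 (20.2 kb away), Nr2f1 (585 kb), Wnt2 (91.6 kb) and Aplnr (24.6 kb). Genes of neural crest and neural progenitors, such as Sox9 and Pou3f2, had Mesp1-only regions too. Of all genes nearest to a merged region, 9.48% had a Mesp1-only region. With every list cut to the same number of peaks, 1 of 51 neural crest regions (1.96%) and 0 of 25 neural progenitor regions were Mesp1-only, against 2.5% of all merged regions.

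The embryos were Swiss Webster mice at E9.5, and GFP-positive, DAPI-negative cells were sorted from pooled embryos. The cKO embryos were Tbx1Cre/flox;Rosa26-GFPflox/+, in which the Cre knock-in disrupts one copy of Tbx1 and Cre recombines the floxed other copy in the cells that express it. The Mesp1-Cre Ctrl embryos were Mesp1Cre;Rosa26-GFPflox/+ and kept both copies of Tbx1. Every group carried the Rosa26 GFP reporter, which labels the descendants of all cells that once expressed the driver gene. Tbx1-Cre Ctrl embryos (Tbx1Cre;Rosa26-GFPflox/+, 3 libraries), which share the driver with the cKO and keep 1 intact copy of Tbx1, were used as a further readout. The labels give the tissue as pharyngeal apparatus and heart for Mesp1-Cre and as the same with back for the Tbx1-Cre groups, whereas the methods of the study describe a pharyngeal apparatus without heart. Genotype, driver and labelled dissection thus all differ between the cKO and Mesp1-Cre libraries, and their parts in a difference between these 6 libraries cannot be told apart.

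Tbx1 encodes a T-box transcription factor of the pharyngeal mesoderm, endoderm and ectoderm, and its loss impairs the cardiac outflow tract and the branchiomeric muscles of the face and neck. Mesp1 is switched on transiently in early mesoderm, so its descendants include heart, endothelium and head mesoderm but little epithelium. Distal open regions often act as enhancers, where tissue-specific transcription factors bind short DNA motifs, whereas promoters are open in most cell types.

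The lengths given for a library are the base pairs of the region that its peaks covered. For the 6 libraries compared this is the full width of the peak, or of several peaks summed (8 of 573 cKO-only and 154 of 5817 Mesp1-only pairs of a region and a library). Tbx1-Cre Ctrl peaks can reach beyond a region and were counted only inside it (Ctrl coverage), so that a value equal to the region's length is a lower bound of their width.

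Examples of the regions chosen by the calls are shown first, each as the central 300 bp on the plus strand of mm9. They were the regions with the greatest mean covered length among distal regions free of exons that were also exclusive at equal list length, with 1 region of a listed developmental gene in each direction. Capitals mark letters that match any of the 18 motifs searched, on either strand. The cKO-only sequences were chr5:64266069-64266368 in an intron of 0610040J01Rik, with forkhead, AP-1, TEAD and ETS letters, chr11:11052645-11052944 in an intron of Vwc2, a secreted BMP antagonist gene, with NKX2 and EBF letters, and chr5:119913062-119913361, an intergenic region 207 kb from Tbx3, with MEIS letters.
0610040J01Rik cKO-only: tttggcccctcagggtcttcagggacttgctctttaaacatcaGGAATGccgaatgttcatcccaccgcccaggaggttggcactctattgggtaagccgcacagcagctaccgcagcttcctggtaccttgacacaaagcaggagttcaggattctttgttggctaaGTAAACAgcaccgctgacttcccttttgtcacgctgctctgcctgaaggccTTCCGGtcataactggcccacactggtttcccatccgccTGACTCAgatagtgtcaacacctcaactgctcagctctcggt
Vwc2 cKO-only: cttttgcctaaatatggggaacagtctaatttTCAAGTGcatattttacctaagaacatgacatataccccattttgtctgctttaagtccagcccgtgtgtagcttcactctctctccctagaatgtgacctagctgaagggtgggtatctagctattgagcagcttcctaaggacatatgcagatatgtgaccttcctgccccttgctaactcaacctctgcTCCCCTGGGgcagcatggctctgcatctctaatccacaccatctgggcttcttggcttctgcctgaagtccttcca
Tbx3 cKO-only: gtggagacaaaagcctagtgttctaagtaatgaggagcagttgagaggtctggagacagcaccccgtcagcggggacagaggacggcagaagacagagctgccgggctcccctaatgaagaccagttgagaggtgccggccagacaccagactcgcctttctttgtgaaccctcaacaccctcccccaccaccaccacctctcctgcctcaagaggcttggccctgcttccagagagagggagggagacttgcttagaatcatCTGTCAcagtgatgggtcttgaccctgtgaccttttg
The Mesp1-only sequences were chr2:115217586-115217885, an intergenic region nearest to BC052040 with homeodomain letters, chr2:37907809-37908108 in an intron of Dennd1a, an endocytic exchange factor gene, with CAGGTG E-box and MEIS letters, and chr13:78923470-78923769, an intergenic region 585 kb from Nr2f1, which encodes an orphan nuclear receptor, with TEAD letters.
BC052040 Mesp1-only: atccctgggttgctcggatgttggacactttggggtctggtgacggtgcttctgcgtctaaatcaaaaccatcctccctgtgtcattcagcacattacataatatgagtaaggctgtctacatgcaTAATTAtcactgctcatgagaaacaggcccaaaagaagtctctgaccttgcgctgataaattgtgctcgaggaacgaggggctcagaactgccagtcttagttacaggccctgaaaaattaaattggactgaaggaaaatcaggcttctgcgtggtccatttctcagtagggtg
Dennd1a Mesp1-only: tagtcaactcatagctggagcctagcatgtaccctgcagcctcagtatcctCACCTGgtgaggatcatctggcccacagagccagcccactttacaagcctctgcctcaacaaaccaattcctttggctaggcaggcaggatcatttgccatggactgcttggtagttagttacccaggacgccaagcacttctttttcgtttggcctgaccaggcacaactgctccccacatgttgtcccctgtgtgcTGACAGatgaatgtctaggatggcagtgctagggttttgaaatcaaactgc
Nr2f1 Mesp1-only: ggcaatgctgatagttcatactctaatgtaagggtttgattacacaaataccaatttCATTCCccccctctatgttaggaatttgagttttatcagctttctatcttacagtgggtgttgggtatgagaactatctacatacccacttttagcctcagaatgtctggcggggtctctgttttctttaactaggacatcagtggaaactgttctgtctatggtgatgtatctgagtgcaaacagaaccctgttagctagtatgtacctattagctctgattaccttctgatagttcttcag

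The lists differed in length. The cKO libraries held 29249, 24026 and 19762 peaks and the Mesp1-Cre libraries 42638, 25476 and 30510, so the groups overlapped and the difference of -8529 peaks in the means (24346 ± 4752 against 32875 ± 8822, SD, n = 3 each) was within the spread (exact two-sided permutation p = 0.2, where 3 against 3 libraries cannot give less than 0.1). Median peak width was 444, 446 and 455 bp in cKO and 462, 469 and 496 bp in Mesp1-Cre, with no overlap (difference -27.33 bp, exact permutation p = 0.1). The share of peaks within 1 kb of the transcription start site (TSS) of a protein-coding gene was 46.6%, 54.6% and 60.3% in cKO and 35.2%, 50.4% and 45.3% in Mesp1-Cre (exact permutation p = 0.2). The lists carry no read depth, so a region without a peak may be open below the calling threshold. Each comparison was therefore repeated at equal list length, with the 19762 widest peaks of every library, which kept peaks down to 297, 237 and 200 bp in cKO and to 497, 261 and 348 bp in Mesp1-Cre. At equal length the difference in median width was -114.2 bp (exact permutation p = 0.2). Longer lists lose more narrow peaks by this rule, so that value depends on list length and is no separate measure of peak width. The promoter shares at equal length were 58.1%, 60.7% and 60.3% in cKO and 58.1%, 57.8% and 57.9% in Mesp1-Cre, a difference of 1.74 percentage points (exact permutation p = 0.1) against 10.2 with full lists. In the Mesp1-Cre lists the narrowest peak was 199 bp, against 200 bp in the other 6 lists, and only these lists held intervals on the mitochondrial genome. Peak processing may therefore also differ with the group, and its part cannot be told apart from that of the cells. The longest of the Mesp1-Cre lists has a length that is not among the peak numbers in the study's own sample table, and it was used as deposited.

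The cKO-only regions were 0.366% and the Mesp1-only regions 3.72% of the merged regions, and 13790 regions, 26.5%, were called in all 6 libraries. With 19762 peaks a library 416 of 32287 merged regions were cKO-only (1.29%) and 808 were Mesp1-only (2.5%). The excess of Mesp1-only regions thus shrank when the lists had the same length. Of the 191 cKO-only regions 105 were exclusive in both versions, as were 556 of the 1939 Mesp1-only regions. Of the 416 equal-length cKO-only regions, 311 overlapped a narrower Mesp1-Cre peak of the full lists, and 252 of the 808 Mesp1-only regions overlapped a cKO peak there. Next to the threshold, 387 regions were called in all 3 cKO and 1 Mesp1-Cre library, 768 in 2 cKO and no Mesp1-Cre library, 1713 in all 3 Mesp1-Cre and 1 cKO library, and 4249 in 2 Mesp1-Cre and no cKO library. Leaving out a library loosens the rule for an exclusive region, since fewer calls or fewer absences are then required. A rise of the exclusive counts follows from that, and its size differed between libraries. The cKO-only count was 500 without Mesp1-Cre replicate 1, the longest of the 6 lists, 629 without cKO replicate 3 and 434 without cKO replicate 2, and the Mesp1-only count was 4836 without Mesp1-Cre replicate 2, 3092 without Mesp1-Cre replicate 3 and 3008 without cKO replicate 1.

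Exclusive regions of both kinds lay far from promoters. Only 10 of 191 cKO-only regions (5.24%, 95% exact Clopper-Pearson interval 2.54 to 9.42, counting error only) and 175 of 1939 Mesp1-only regions (9.03%, 7.79 to 10.4) lay within 1 kb of a TSS by their nearest edge, against 29.9% of all merged regions and 73.2% of those called in all 6 libraries. The merged regions include those called in all 6 libraries, which cannot be exclusive, so part of this contrast follows from the definition. Without Mesp1-Cre replicate 1 the cKO-only share was 11.4%. With lists of one length the shares were 10.3% and 10.9%, beside 41.9% of all merged regions. The median distance to a TSS was 46.0 kb for cKO-only, 40.8 kb for Mesp1-only and 15 kb for all merged regions, and 47.6%, 45.6% and 27.6% lay more than 50 kb away. Of the distal regions, 107 of 181 cKO-only (59.1%) and 955 of 1764 Mesp1-only (54.1%) were intergenic, beside 52.7% of all distal merged regions. The nearest peak of the other group was a median of 14.8 kb away from a cKO-only and 20.1 kb away from a Mesp1-only region. A peak of the other group lay within 1 kb of 20 cKO-only and 108 Mesp1-only regions.

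**Figure D1:**
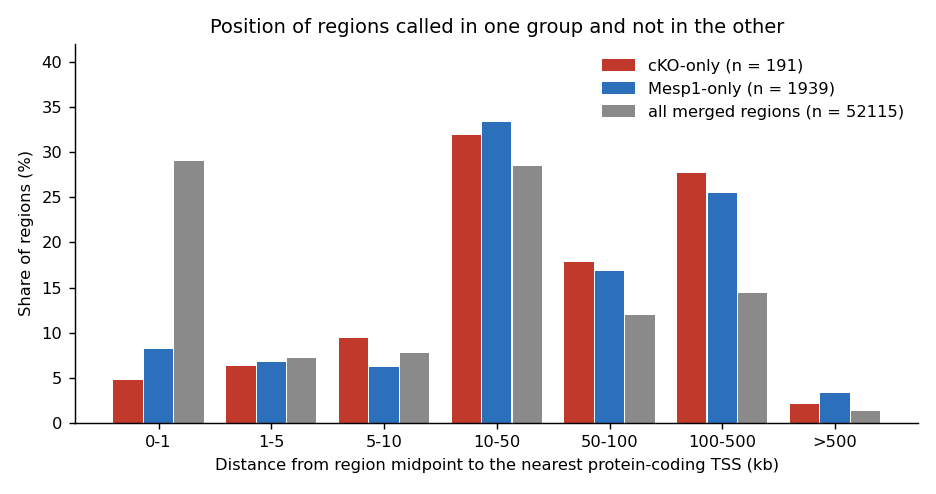
Share of regions (%, vertical axis) by distance from the region midpoint to the nearest protein-coding TSS (kb, horizontal axis) for 191 cKO-only (red), 1939 Mesp1-only (blue) and 52115 merged regions (grey). Of the merged regions 29.0% had their midpoint within 1 kb, against 4.71% of cKO-only and 8.20% of Mesp1-only regions, and the largest class of both exclusive sets was 10 to 50 kb.

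The Tbx1-Cre Ctrl libraries took no part in choosing the regions, and their lists were longer (49477, 43271 and 46983 peaks). A Tbx1-Cre Ctrl peak lay in 92.7%, 94.2% and 97.9% of the cKO-only regions in Ctrl replicates 1, 2 and 3, and in 61.2%, 47.7% and 51.1% of the Mesp1-only regions, beside 69%, 62.9% and 67.3% of all merged regions. The merged regions include those called in all 6 libraries compared, which cannot be exclusive. Ctrl peaks lay in 99.5%, 99.6% and 99.8% of these, which raises the share over all merged regions. Every Ctrl library thus called cKO-only regions more often than Mesp1-only regions, with a mean difference of -41.6 ± 8.80 percentage points (Mesp1-only minus cKO-only, SD, n = 3, exact permutation of signs over 3 libraries, p = 0.25 on both sides, which is the lowest value it can give). At equal list length the Ctrl lists kept peaks only down to 573, 545 and 579 bp in replicates 1, 2 and 3, so a narrower Ctrl peak counted as no call. There the means were 70.3% ± 2.89 and 25.5% ± 3.37, beside 55.1% to 55.6% of all merged regions, and the difference was -44.8 ± 6.13 points (exact p = 0.25). The difference was smaller, at -21.0 points, without cKO replicate 1, and -24.2 points where a call required that peaks cover 50% of a region. Most cKO-only regions, 171 of 191 (89.5%), were called in all 3 Ctrl libraries, and 4 (2.09%) in no Ctrl library. Among Mesp1-only regions 634 (32.7%) were called in all 3 Ctrl libraries and 484 (25%) in no Ctrl library, beside 52.3% and 19.8% of all merged regions. The 634 are regions called in both control groups and in no cKO library. With lists of one length, however, 74 of 808 were called in all 3 Ctrl libraries (9.16%) and 447 in no Ctrl library (55.3%), beside 41.2% and 30.3% of all merged regions, and of the cKO-only regions 204 of 416 (49%) were called in all 3 and 48 (11.5%) in none. Because of the width limit of the Ctrl lists, these lower shares do not show that a Ctrl peak was absent. The Mesp1-only regions without a Ctrl call lay farther from genes (median 61.6 kb, 2.07% at promoters) than those called in all 3 Ctrl libraries (34.4 kb, 15.6%).

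**Figure D2:**
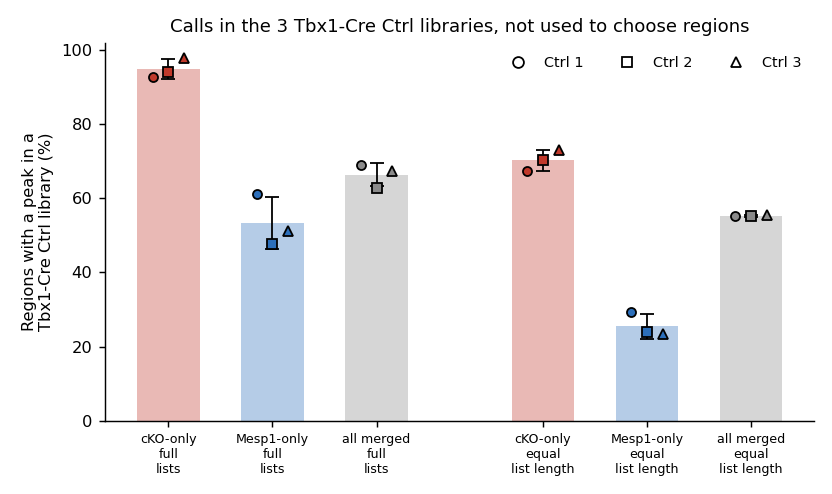
Share of regions with a peak in a Tbx1-Cre Ctrl library (%, vertical axis) for cKO-only, Mesp1-only and all merged regions, with full lists (left) and equal list length (right). Symbols are the 3 Ctrl libraries, bars their mean and error bars the SD. With full lists the cKO-only points lie between 92.7% and 97.9% and the Mesp1-only points between 47.7% and 61.2%.

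The 4 regions called in all 3 cKO and in none of the other 6 libraries were examined after their values were seen. The promoter regions of the predicted genes Gm2897, Gm10021 and Gm3715 lie on chromosome 14 among related predicted genes, so that reads may be shared between copies and the calls are uncertain. Peak widths in the 3 cKO libraries were 207, 509 and 474 bp at Gm2897, 205, 300 and 378 bp at Gm10021 and 200, 216 and 281 bp at Gm3715. The remaining region, in an intron of Tiam1, which encodes an activator of the GTPase Rac (chr16:90071609-90071869, 72.3 kb from the TSS), had peaks of 246, 251 and 213 bp. None of the 4 was exclusive at equal list length, and all 4 had peaks near the lower width limit of the lists in at least 1 cKO library.

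Among the cKO-only regions that were also exclusive at equal list length, the 10 with the greatest mean covered length were all distal, and all 10 carried a peak in every Tbx1-Cre Ctrl library. The widest lay in an intron of 0610040J01Rik (chr5:64265866-64266571), with cKO peaks of 662, 702 and 688 bp and Ctrl coverage of 706, 640 and 706 bp. Centred in an intron of Ext2 and touching an exon, a region of this gene of heparan sulfate synthesis (chr2:93615333-93616239) came next, and its cKO peaks measured 739, 904 and 347 bp. At Vwc2 (chr11:11052434-11053156) they measured 723, 496 and 566 bp, and Ctrl coverage 692, 657 and 717 bp. The cKO values thus lay in the range of the Ctrl values at 0610040J01Rik, and they varied more between replicates at Ext2. An intergenic region 156 kb from Foxp1, a forkhead factor gene (chr6:98822314-98823007), had cKO peaks of 651, 435 and 592 bp and Ctrl coverage of 351, 430 and 557 bp. Regions nearest to Slc16a1, a lactate transporter gene, and Kif20b, a kinesin gene, had cKO peaks of 532 to 651 bp and 555 to 603 bp, and the closest Mesp1-Cre peak was 4.38 kb and 18 kb away. The other members of this group were nearest to Cox7b2, B130024G19Rik, Ubl3 and Aldoart1, at 94.1 to 313 kb from the TSS.

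The 10 corresponding Mesp1-only regions were also distal, and 6 of them carried a peak in all 3 Ctrl libraries. In an intron of Nrxn3, a neuronal adhesion gene (chr12:90222286-90223640), Mesp1-Cre peaks measured 1108, 536 and 1114 bp and Ctrl coverage 878, 1279 and 1055 bp. In an intron of Pcsk6, which encodes a convertase that processes TGF-beta family ligands (chr7:73074360-73075427), they measured 1043, 802 and 732 bp, and Ctrl coverage 952, 942 and 1064 bp, but a cKO peak lay 0.267 kb away. At both regions the Ctrl libraries covered a length like that in Mesp1-Cre, inside the region. The pattern differed at Inpp4a, a phosphoinositide phosphatase gene (chr1:37455782-37456979, overlapping an exon), with Mesp1-Cre peaks of 1153, 809 and 1198 bp and Ctrl coverage of 733 bp in replicate 1 only. Near Glrx3, a glutaredoxin gene, the Mesp1-Cre peaks measured 772, 905 and 811 bp, and near Gpc1, a glypican gene, 775, 653 and 1052 bp, again with a Ctrl peak in replicate 1 only. The regions nearest to BC052040, Dennd1a, Ldlrad3 (a receptor of the LDL receptor class) and Slc39a8 (a zinc transporter) were called in 3 Ctrl libraries and that nearest to Dcdc5 in 2.

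By the nearest TSS, 186 of 16685 genes had a cKO-only region (1.11%) and 1581 had a Mesp1-only region (9.48%), and at equal list length 394 (2.59%) and 728 (4.79%) of 15199 genes. A gene with more merged regions has more chances, and genes with an exclusive region of either kind had a median of 6 merged regions, against 2 over all genes. No gene had more than 2 cKO-only regions, and 5 genes had 2. One was Tbx18, a T-box gene of the epicardium and sinus venosus, with regions 48.7 and 165 kb away whose cKO peaks measured 252, 365 and 382 bp and 295, 416 and 210 bp, both called in all 3 Ctrl libraries and neither exclusive at equal list length. Col5a1, a fibrillar collagen gene, had a promoter region 0.764 kb from its TSS and another 39.1 kb away. The other 3 were Ubl3, Rad51l1, a DNA repair gene, and the predicted gene Gm5356. Of the 186 genes with a cKO-only region, 50 also had a Mesp1-only region, beside 9.48% of all genes. These 50 genes had a median of 13.5 merged regions, against 2 over all genes, and so more chances of both kinds.

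Among Mesp1-only regions, 64 genes had 3 or more. The highest number, 6, was at 1700112E06Rik, of which 4 were also exclusive at equal list length. Acvr2a, which encodes an activin receptor, had 5, spread from 147 to 676 kb from its TSS. At its farthest region (chr2:47993402-47994159) Mesp1-Cre peaks measured 582, 745 and 560 bp and Ctrl coverage 758, 643 and 758 bp, whereas 3 regions of Acvr2a had no Ctrl peak. With 4 each followed Zeb2, a transcription factor gene of epithelial-to-mesenchymal transition, Plxna2, a semaphorin receptor gene, Adamts9, a matrix protease gene, Gpc5, a glypican gene, Prkd1, a kinase gene, Fbxo8, Fam86 and Gm6404. At Zeb2 3 of the 4 regions had no Ctrl peak and none was exclusive at equal list length. At Plxna2 every region was called in at least 1 Ctrl library, and 3 of 4 were also exclusive at equal list length. The gaps between genes differ, and regions up to 1408 kb from a TSS, as at Zeb2, were assigned to a gene only because no other protein-coding TSS was closer.

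The merged regions at genes of 15 developmental lists were then counted. Since large regulatory domains hold more regions, each list is given by the share of its merged regions that were exclusive, beside 0.366% and 3.72% over all merged regions (1.29% and 2.5% at equal list length). Position also matters, since 1764 of 36541 distal merged regions were Mesp1-only, but only 175 of 15574 within 1 kb of a TSS. A list with many distal regions can exceed the overall share for that reason, and position was not corrected for. No test was applied to these lists.

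Regulators and structural genes of the heart had Mesp1-only regions above the overall share in the full lists, but only the regulators at equal list length. At the 16 cardiac transcription regulators 8 of 119 regions were Mesp1-only (6.72%), at Hand2, Irx4, Mef2c, Smarcd3, Tbx20 and Tbx3, and 4 of 60 at equal list length (6.67%), with 2 of 60 cKO-only, both at Tbx3 (3.33%). Of these equal-length regions, the Mesp1-only one at Hopx and the cKO-only one 292 kb from Tbx3 overlapped other-group peaks of the full lists. The Hand2 locus, a basic helix-loop-helix gene of the second heart field and right ventricle, had a region 20.2 kb from the TSS (chr8:59819593-59820400) with Mesp1-Cre peaks of 658, 511 and 460 bp and Ctrl coverage of 383, 585 and 560 bp. A second one, 11 kb away, had Mesp1-Cre peaks of 209, 243 and 342 bp and no Ctrl peak. At Irx4, a ventricular homeobox gene, a region 190 kb away had Mesp1-Cre peaks of 842, 451 and 680 bp and a Ctrl peak in 1 library. The conduction system gene Tbx3 had regions of both kinds. Its 2 Mesp1-only regions lay 18.9 and 95.3 kb upstream, with Mesp1-Cre peaks of 677, 633 and 753 bp at the nearer one, and its cKO-only region lay 207 kb upstream, with cKO peaks of 752, 257 and 202 bp and Ctrl coverage of 752, 612 and 737 bp. In the list of 20 sarcomere and myocyte genes 6 of 53 regions were Mesp1-only (11.3%), 1 each at Myh7, Myl4, Nppb, Ryr2, Tnni1 and Tnnt2, which encode contractile proteins, a natriuretic peptide and the calcium release channel. The shortest of the 3 Mesp1-Cre values ranged from 199 to 271 bp among them. At Tnnt2, 4.64 kb upstream, the peaks measured 801, 199 and 388 bp, and at Ryr2, 26.9 kb upstream, 369, 226 and 267 bp, the latter with no Ctrl peak. At equal list length 0 of the 20 regions left at these genes were exclusive in either direction, so this count depended on peaks outside the 19762 widest of a list.

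The posterior second heart field and lung mesenchyme list kept its share at equal list length. Of 120 regions 12 were Mesp1-only (10%), and 9 of 74 at equal length (12.2%), at 8 and 7 of the 12 genes. Of the equal-length regions, those at Gli1, 480 kb from Nr2f1 and 88.2 kb from Wnt2 overlapped cKO peaks of the full lists. Nr2f1, a nuclear receptor gene of the atrial and venous pole, had a region 585 kb upstream (chr13:78923214-78924025) with Mesp1-Cre peaks of 602, 812 and 654 bp and no Ctrl peak. Wnt2, a ligand gene of the posterior second heart field, had a region 91.6 kb downstream within St7 (chr6:17888522-17889423), with peaks of 611, 470 and 902 bp and again no Ctrl peak, and a second region 1.27 kb upstream. At Osr1, a zinc finger gene of the atrial septum progenitors, a region 83.0 kb downstream had Mesp1-Cre peaks of 955, 465 and 204 bp and Ctrl coverage of 649, 781 and 662 bp. With full lists the single cKO-only region was at Gli3, a mediator of hedgehog signalling, with cKO peaks of 265, 444 and 223 bp and Ctrl coverage of 590 bp in each library. At equal length 2 of 74 were cKO-only (2.70%), at Rarb and at Nr2f1, which thus had regions of both kinds there, and both overlapped a Mesp1-Cre peak of the full lists.

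Genes of the multilineage progenitors and the anterior second heart field had 12 Mesp1-only regions of 123 (9.76%) and no cKO-only region, and 5 of 75 at equal list length (6.67%). Of these 5, the one 12.1 kb from Isl1 overlapped a cKO peak of the full lists. Nrg1, a neuregulin ligand gene, had 3, with Mesp1-Cre peaks of 912, 561 and 541 bp and Ctrl coverage of 642, 362 and 460 bp at the one 127 kb upstream (chr8:33246012-33246923). Aplnr, the apelin receptor gene, had a region 24.6 kb downstream that touched an exon (chr2:85000708-85001544), with peaks of 825, 802 and 720 bp. Foxc1, a forkhead gene of head and heart mesoderm, had a region 249 kb downstream within Gmds with peaks of 509, 505 and 546 bp. Neither of these had a Ctrl peak. Isl1, a LIM homeobox gene of the second heart field, had 2 narrow regions 180 and 200 kb upstream with peaks of 205 to 263 bp and no Ctrl peak. Foxc2 had 2, and Sema3c and Six2 1 each.

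Branchiomeric muscle regulators had 8 Mesp1-only regions of 85 (9.41%), at Ebf1, Ebf3, Msc, Tcf21 and Tlx1, but 1 of 44 at equal length (2.27%), with 1 of 44 cKO-only, at Ebf2. The Ebf2 region overlapped a Mesp1-Cre peak of the full lists. Among the Mesp1-only regions of the full lists, 3 were intronic at Ebf1, the widest with Mesp1-Cre peaks of 664, 720 and 492 bp and Ctrl coverage of 771, 307 and 771 bp. At Tcf21, a helix-loop-helix gene of facial muscle and epicardial progenitors, the peaks measured 452, 773 and 467 bp. Of 12 somite and paraxial mesoderm genes 4 had 1 Mesp1-only region each, Pax1, Ripply1, Tbx6 and Tcf15 (7.14% of 56 regions), and all 4 regions had a peak in every Ctrl library. At equal length the direction turned, with 1 of 34 Mesp1-only (2.94%) and 2 of 34 cKO-only (5.88%), the latter at Pax3 and Pax7, where Mesp1-Cre peaks of the full lists overlapped. Limb and lateral plate genes had 4 of 89 (4.49%), at Alx1, Meis1 and Prrx2, and neural crest genes 7 of 92 (7.61%), at Ets1, Sox5, Sox9 and Tcfap2b. With lists of one length they had 3 of 53 (5.66%) and 1 of 51 (1.96%), the latter below the overall share, and 1 cKO-only region, also at Sox9 (1.96%). Of these, the limb region at Meis2 overlapped cKO peaks of the full lists, and the cKO-only region at Sox9 a Mesp1-Cre peak. The 3 Mesp1-only regions of the full lists at Sox9, a gene of cartilage and crest cells, had Mesp1-Cre peaks of 823, 709 and 502 bp at the widest.

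In the epithelial identity list 1 of 64 regions was Mesp1-only, at Tcfap2c, and no region was cKO-only (0 of 64). The 22 otic and placode genes had 2 Mesp1-only regions of 92 (2.17%), at Eya1 and Fgf3, and pharyngeal endoderm regulators 6 of 103 (5.83%), at Foxa2, Isl1, Pax1 and Sox2, and neither list had a cKO-only region. With lists of one length the endoderm list had 2 cKO-only regions, at Prdm1 and Sox2 (3.45% of 58), and 3 Mesp1-only regions (5.17%). Both cKO-only regions overlapped narrower Mesp1-Cre peaks of the full lists, and the Mesp1-only region at Isl1 overlapped a cKO peak there. Neural progenitor genes had 3 Mesp1-only regions of 37 (8.11%), at Olig2 and Pou3f2, and 0 of 25 at equal length.

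Vascular and epicardial genes held 5 of the cKO-only regions of the lists. At 24 endothelial and endocardial genes 2 of 139 regions were cKO-only (1.44%) and 4 were Mesp1-only (2.88%), and at equal list length 3 of 73 (4.11%) and 0 of 73. Of these 3, the regions at Eng and Nfatc1 overlapped Mesp1-Cre peaks of the full lists, at Nfatc1 in all 3 libraries. Of the 2 cKO-only regions of the full lists, 1 lay 107 kb downstream of Kdr, the VEGF receptor gene (chr5:76267087-76267613), with cKO peaks of 381, 506 and 200 bp and Ctrl coverage of 498 and 488 bp in replicates 1 and 3. The other lay in an intron of Tie1, an endothelial receptor kinase gene, with cKO peaks of 369, 224 and 226 bp and Ctrl coverage of 369 bp in each library. The Mesp1-only regions were at Ets1, Flt1 and Pecam1. Of the epicardial and septum transversum regions 3 of 91 were of each kind (3.30%), with Bnc2 and Tbx18 in both sets and Tcf21 in the Mesp1-only set alone, and at equal length 2 of 45 were cKO-only (4.44%) and 1 was Mesp1-only (2.22%). Both of these cKO-only regions, at Bnc1 and Tbx18, overlapped Mesp1-Cre peaks of the full lists. At the 14 blood progenitor genes 0 of 50 regions were exclusive.

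**Figure D3:**
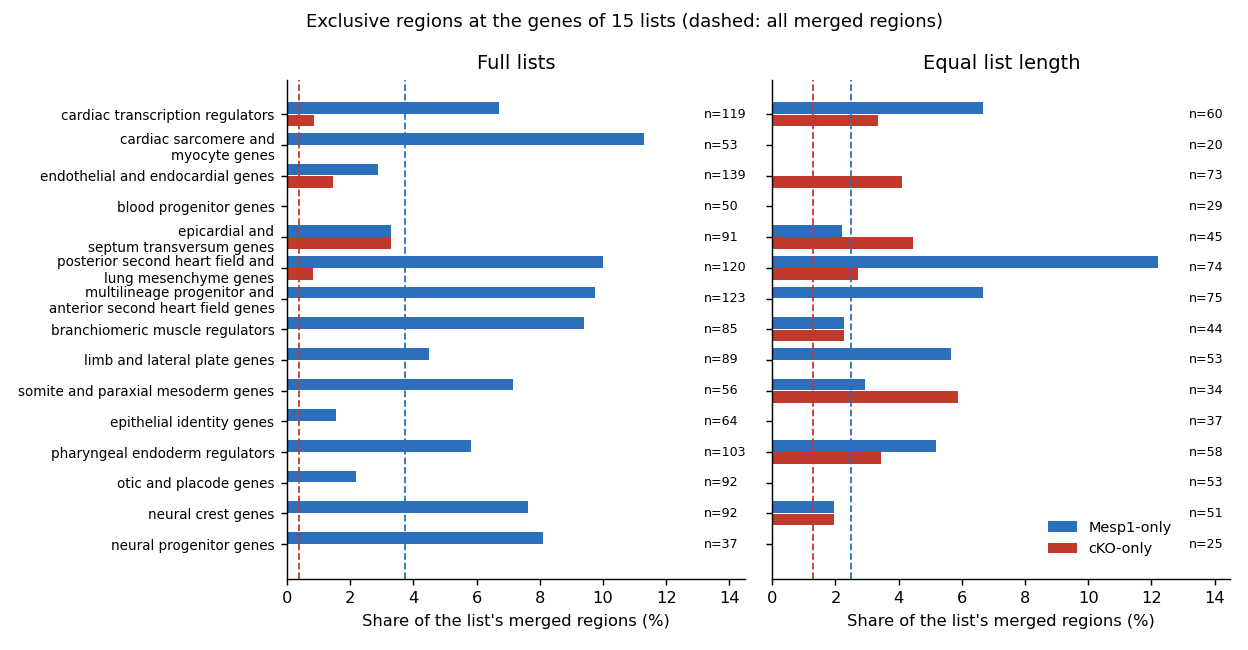
Share of the merged regions at the genes of each list (%, horizontal axis) that were Mesp1-only (blue) or cKO-only (red), with full lists (left) and equal list length (right). Dashed lines mark the share over all merged regions, 3.72% and 0.366% on the left and 2.5% and 1.29% on the right, and n is the number of merged regions of a list. The posterior second heart field list lies at 10% and 12.2% Mesp1-only, and the sarcomere list at 11.3% and 0.

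Peaks were also counted within 10 kb of marker genes. The genes counted were 27, of which Tbx1 is given last. Of 9 mesoderm markers 7 carried a peak in each cKO library, 9, 9 and 8 in the Mesp1-Cre libraries and 9, 8 and 8 in Tbx1-Cre Ctrl. At equal list length the numbers were 6, 7 and 7 in cKO and 5, 7 and 6 in Mesp1-Cre, so the groups overlapped, beside 6, 5 and 4 in Ctrl. Peak counts in cKO were all below those in Mesp1-Cre at Hand2 (3, 4 and 2 against 5, 5 and 5), Gata4, a zinc finger factor gene of heart mesoderm (1, 1 and 1 against 3, 2 and 3), and Wt1, an epicardial gene (1, 0 and 1 against 4, 2 and 3), each with exact permutation p = 0.1 and no correction over the loci counted. The same held for Cldn6, an epithelial claudin gene (1, 1 and 1 against 3, 2 and 3). At equal list length the counts of the groups overlapped at all 4 of these genes. Of 5 epithelial markers 4, 2 and 2 carried a peak in cKO and 5, 3 and 3 in Mesp1-Cre, beside 5, 4 and 5 in Tbx1-Cre Ctrl. At equal list length the epithelial numbers were 3, 2 and 2 in cKO, 2, 3 and 2 in Mesp1-Cre and 2, 3 and 3 in Ctrl. Pharyngeal endoderm markers carried a peak at 2 of 4 genes in each cKO library and at 2 to 4 in Mesp1-Cre, and otic markers at 0 to 1 of 4 and 1 to 3 of 4. In the full Ctrl lists the numbers were 4, 2 and 3 for endoderm and 3, 3 and 2 for otic markers. At equal list length the endoderm numbers were 0, 2 and 2 in cKO and 1, 1 and 0 in Mesp1-Cre. The otic numbers there were 0, 1 and 0 in cKO and 2, 1 and 0 in Mesp1-Cre. With full lists neural crest markers carried a peak at 1, 0 and 1 of 2 genes in cKO and at 1, 1 and 0 in Mesp1-Cre. The part of other cell types in the differences was not tested. Oc90 and Gata1 carried no peak in any of the 9 libraries, and Klf1, an erythroid factor gene, carried 3 or 4 in each. An ATAC-seq peak near a gene does not measure its expression.

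At Tbx1 itself (chromosome 16) no cKO library held a peak within 10 kb, whereas the Tbx1-Cre Ctrl libraries held 3, 2 and 2 (1, 1 and 0 at equal list length). Mesp1-Cre replicates 1 and 2 held overlapping peaks at chr16:18588165-18588558 and chr16:18588163-18588467, 249 and 202 bp from a Tbx1 TSS, and replicate 3 held a peak of 228 bp elsewhere, 9151 bp from it (difference -1 peak, exact permutation p = 0.1). The 3 Mesp1-Cre lists therefore shared no Tbx1 region, and at equal list length the difference was -0.333 (exact p = 1), since narrow peaks are left out there.

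Short motifs were searched in the central 300 bp of the distal peaks at equal list length, on both strands, as letter matches and not as binding sites. GATA letters (AGATAA), recognised by the GATA factors of heart, blood and endoderm, were in 10.4%, 10.1% and 10.1% of cKO peaks, in 14.9%, 14% and 16.6% of Mesp1-Cre peaks, and in 10.1%, 11% and 10.4% of Tbx1-Cre Ctrl peaks. The cKO and Mesp1-Cre libraries did not overlap (difference -4.94 percentage points, exact two-sided permutation p = 0.1, adjusted p = 0.300 over 18 motifs), and the cKO libraries lay in the range of the Ctrl libraries. MEIS letters (TGACAG), the motif of TALE homeodomain factors, were in 23.8%, 22.8% and 22.4% of cKO, 29.1%, 28.5% and 28.1% of Mesp1-Cre and 26.4%, 25.9% and 25.5% of Ctrl peaks (difference -5.59 points, exact p = 0.1, adjusted p = 0.300). For MEIS the Ctrl libraries thus lay between the groups compared. The CAGCTG E-box and NKX2 letters (CACTTGA) were also less frequent in every cKO library, so 4 of 18 motifs (22.2%) were lower in each cKO than in each Mesp1-Cre library. Both SOX letters (ACAATG, 11.4% to 11.6% against 10% to 10.5%) and T-box letters (GGTGTGA, 4.22% to 4.37% against 4.03% to 4.20%) were higher in every cKO library (2 of 18, 11.1%), but with full lists the T-box difference turned to -0.0488 points and the SOX difference was 0.0818 points (exact permutation p = 0.7) against 1.21, so that neither motif separated the groups there. None of the 18 could pass a threshold of 0.05 with 3 libraries a side.

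**Figure D4:**
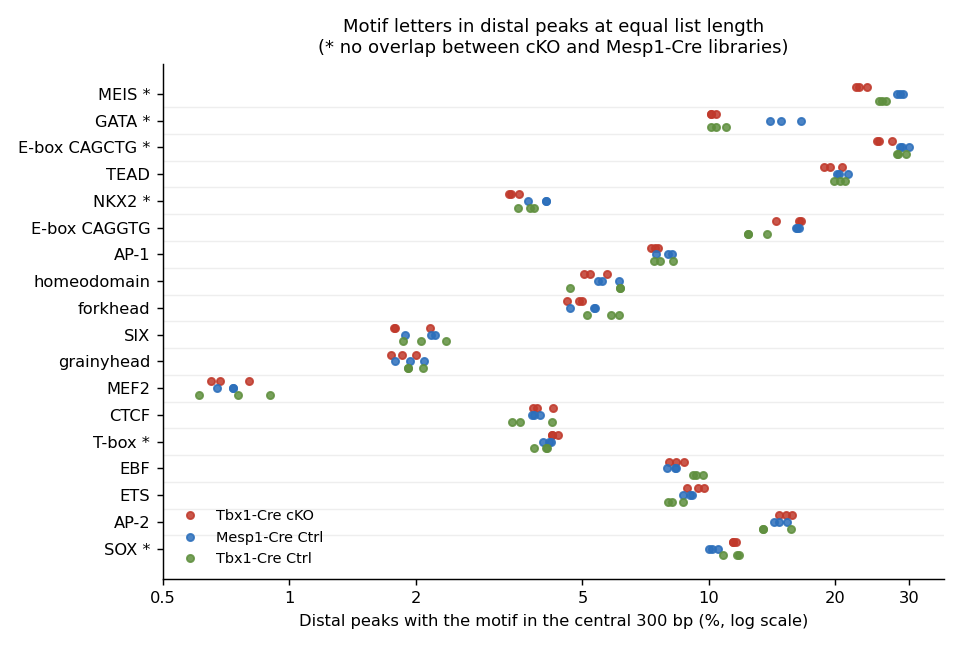
Share of distal peaks with each of 18 motifs in the central 300 bp at equal list length (%, horizontal axis, log scale), with a point for each cKO (red), Mesp1-Cre Ctrl (blue) and Tbx1-Cre Ctrl (green) library, ordered by the difference between cKO and Mesp1-Cre. An asterisk marks 6 motifs whose cKO and Mesp1-Cre points do not overlap, and GATA letters lie at 14% to 16.6% in Mesp1-Cre and at 10.1% to 11% in the other 6 libraries.

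The exclusive regions also differed in their shares of GATA and MEIS letters, given here without a test. GATA letters were in 13 of 181 distal cKO-only regions (7.18%), 466 of 1764 distal Mesp1-only regions (26.4%) and 16.3% of all distal merged regions, and at equal list length in 8.85%, 27.1% and 14.7%. MEIS letters were in 25.4%, 40.5% and 27.8%, and at equal list length in 24.1%, 41.2% and 28%. Among Mesp1-only regions GATA letters were in 35.7% of those called in no Ctrl library and in 28.3%, 21.8% and 19.6% of those called in 1, 2 and 3 Ctrl libraries. All merged regions ran the same way, from 24.9% in no Ctrl library to 11.3% in 3, and lay below the Mesp1-only regions in each class. Both motifs occurred together in 17.1% of the Mesp1-only regions without a Ctrl call and in 7.48% of those called in 3 Ctrl libraries. Over all distal merged regions the shares in these classes were 8.93% and 3.09%, and 5.01% with all classes together. The CAGGTG E-box was in 8.84% of cKO-only, 18.6% of Mesp1-only and 17.8% of all distal regions. AP-2 letters (GCCNNNGGC) ran the other way, at 15.5%, 8.5% and 11.3%, and homeodomain letters (TAATTA) were in 11%, 8.96% and 6.3%. ETS letters (CCGGAA) were in 4.42% of cKO-only, 4.54% of Mesp1-only and 6.41% of all distal regions, and T-box letters in 3.87%, 3.91% and 4.20%. The T-box motif thus had like shares in both sets of exclusive regions.

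Along the regions, GATA letters were most frequent at the midpoint of Mesp1-only regions, in 11.8% of them within the 100 bp below it and 9.86% within the 100 bp above, against 6.80% at 400 to 500 bp below. In cKO-only regions the same central bins held GATA letters in 1 and 2 of 181 regions (0.552% and 1.10%), whereas the outer bins ranged from 4.42% to 8.84%. All merged regions stayed between 5.44% and 6.18% in every bin. MEIS letters reached 19.2% just below the midpoint of Mesp1-only regions, beside 10.5% of cKO-only and 11.4% of all merged regions.

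**Figure D5:**
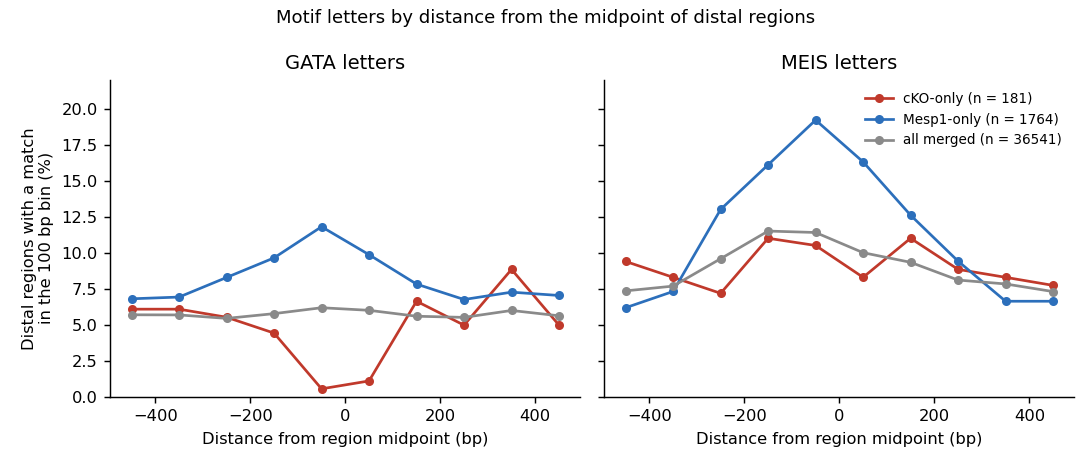
Share of distal regions with GATA (left) or MEIS (right) letters in each 100 bp bin (%, vertical axis) by distance from the region midpoint (bp, horizontal axis) for 181 cKO-only (red), 1764 Mesp1-only (blue) and 36541 merged (grey) distal regions. GATA letters reach 11.8% at the centre of Mesp1-only regions and 0.552% and 1.10% in the central bins of cKO-only regions.

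To show these motifs in sequence, the Mesp1-only regions of listed genes were searched, a choice made after the motif counts were seen. Over all 1764 distal Mesp1-only regions, GATA letters were in 26.4%, MEIS letters in 40.5% and both in 11.5%. The 64 distal regions of listed genes free of exons did not exceed these shares. Of the 64, 15 held GATA letters, 24 held MEIS letters and 4 held both, near Tbx3, Tbx18, Sox9 and Isl1. Their central 300 bp in mm9, plus strand, are chr5:120025204-120025503 (Tbx3, 95.3 kb upstream), chr9:87513268-87513567 (Tbx18, 113 kb downstream), chr11:112598381-112598680 (Sox9, 45.0 kb upstream) and chr13:117299447-117299746 (Isl1, 200 kb upstream), with only GATA and MEIS letters in capitals.
Tbx3 Mesp1-only: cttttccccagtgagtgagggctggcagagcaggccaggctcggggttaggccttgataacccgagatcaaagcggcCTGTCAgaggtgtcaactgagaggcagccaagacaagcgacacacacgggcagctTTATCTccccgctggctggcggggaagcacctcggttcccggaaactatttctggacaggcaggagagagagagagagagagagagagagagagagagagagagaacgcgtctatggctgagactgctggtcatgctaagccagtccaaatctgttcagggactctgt
Tbx18 Mesp1-only: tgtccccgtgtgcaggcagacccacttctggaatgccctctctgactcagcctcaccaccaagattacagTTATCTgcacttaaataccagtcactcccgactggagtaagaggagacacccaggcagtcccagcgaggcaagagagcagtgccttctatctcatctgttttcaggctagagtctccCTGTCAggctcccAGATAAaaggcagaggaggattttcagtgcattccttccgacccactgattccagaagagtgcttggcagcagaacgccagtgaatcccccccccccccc
Sox9 Mesp1-only: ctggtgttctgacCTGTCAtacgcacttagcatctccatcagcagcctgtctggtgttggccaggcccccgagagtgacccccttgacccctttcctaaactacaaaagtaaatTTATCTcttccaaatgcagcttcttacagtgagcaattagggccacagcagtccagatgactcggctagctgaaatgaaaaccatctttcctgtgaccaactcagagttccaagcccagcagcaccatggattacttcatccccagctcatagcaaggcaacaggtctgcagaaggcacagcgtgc
Isl1 Mesp1-only: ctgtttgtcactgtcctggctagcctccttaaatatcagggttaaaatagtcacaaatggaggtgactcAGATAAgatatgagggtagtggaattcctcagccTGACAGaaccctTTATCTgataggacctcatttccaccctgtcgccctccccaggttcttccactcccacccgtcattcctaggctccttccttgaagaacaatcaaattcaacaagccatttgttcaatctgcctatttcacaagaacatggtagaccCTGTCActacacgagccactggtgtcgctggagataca
Peaks in Mesp1-Cre replicates 1, 2 and 3 measured 564, 199 and 794 bp at the Tbx3 region, 520, 388 and 478 bp at Tbx18, 518, 400 and 288 bp at Sox9 and 262, 213 and 263 bp at Isl1. The Tbx3 and Tbx18 regions were called in all 3 Ctrl libraries, the Sox9 region in 2 and the Isl1 region in none.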

How the data were processed

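ATAC-seq peak lists of 9 libraries were used, 6 for the comparison and 3 for a further readout. The deposited lists hold only a chromosome, a start and an end for each peak, in bp, with no score, count or other value. Before that, the authors cut adapters off with cutadapt and used Bowtie2 2.3.4.3 (mm9). Their methods state that only unique concordant pairs entered, without duplicates or mitochondrial reads, and that MACS2 was run on single libraries with reads shifted and extended by fixed lengths, on which peak edges and midpoints depend. Depth is not in the lists, and nothing here measures signal.

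Peaks were merged, and genes, TSS and sequence were taken from NCBIM37 (mm9) with its GENCODE annotation. A promoter region overlapped a protein-coding TSS or had its nearest edge within 1 kb of it. Distances to a TSS were measured from midpoints, so shares within 1 kb differ slightly between these measures. Of 234 listed symbols 233 matched the annotation, 5 of them through synonyms. Group means were compared with exact permutation tests, and counts of exclusive regions were described with no p, since the calls chose them. Named were the 10 regions with the greatest mean covered length and the 10 genes with most regions in each direction, up to 4 members of each of 15 lists, and Tbx1. Other listed genes and regions were named after their values were seen. The regions, lists and tests were chosen with earlier results of these data known. Alternatives were list length, a width threshold, chromosomes, overlap, distance, region definition, promoter window, motif window and leaving out each library. The labels give the libraries of a group as separate samples, and p-values measure the spread between these, which may be partly technical. The procedures were tested on simulated data (12000 regions) and passed 10 of 10 checks. Python 3.11.15, numpy 2.4.6, pandas 2.3.3, scipy 1.17.1 and matplotlib 3.10.9 were used.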

Additional observations from a re-analysis of the deposited data

Results flagged for a closer look

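Each Mesp1-Cre Ctrl list held 2 intervals on the mitochondrial genome, covering 6967, 6799 and 6851 bp in replicates 1, 2 and 3, whereas the cKO and Tbx1-Cre Ctrl lists held none. They were set apart because they lie outside the chromosomes compared, and because the methods of the study describe the removal of mitochondrial reads. They entered no comparison.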

How the results depend on the processing

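At equal list length the difference in peaks per library was 0 by construction, the exclusive counts were 416 and 808 and their promoter shares 10.3% and 10.9%. The widest 75% of peaks gave 120 cKO-only regions and a Mesp1-only promoter share of 13.8%. That share was 18.7% with peaks covering 50% of a region, 7.48% with no other-group peak within 1 kb, 12.0% by intersection of 3 lists (cKO-only 9.46%) and 12.2% with a 2.5 kb promoter. The cause was not tested. Leaving out each library gave 226 to 629 cKO-only and 2130 to 4836 Mesp1-only regions, with promoter shares of 5.83% to 11.4% and 8.86% to 13.1%, a Ctrl call difference of -49.9 to -21.0 points, -12228 to -3647 peaks, and 6 to 9 motifs without overlap. The higher counts follow from the looser rule with fewer libraries. With full lists 10 of 18 motifs did not overlap and T-box turned to -0.0488 points, and a 200 bp window turned grainyhead to 0.0257 and CTCF to -0.137 points. With the replicate number as a block the differences were -8529 peaks, -4.866 Mb, -27.33 bp and 10.2 points (exact sign-flip p = 0.25 each, the smallest possible). Correlations of same-numbered deviations ran from -0.014 to 0.007, so the numbers gave no sign of pairing. A further 104 recomputed values of the comparisons and 33 of single motifs kept their direction or, for counts and shares, stayed near the value reported, but some differences changed in size, such as SOX, 0.0818 points with full lists. With 3 libraries a side no exact test could pass 0.05, and without read depth an absent peak cannot be told from a weak one.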

Other observations

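The side of the midpoint on which motif letters fell differed between lists. Within 200 bp of the midpoint of distal peaks at equal list length, CTCF letters (CAGGGGGC) lay below the midpoint in 57.5%, 60.1% and 57.2% of matches in cKO, in 50.6%, 58.1% and 52.7% in Mesp1-Cre and in 47.5%, 46.9% and 46.4% in Tbx1-Cre Ctrl. For GATA letters the shares were 46.3%, 44.9% and 41.7% in cKO and 49.8%, 50.3% and 52.8% in Mesp1-Cre. The effect of such an offset on the motif shares was not tested beyond the 200 bp window.

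Mesp1-only regions took between 2.64% (chromosome 19) and 5.48% (chromosome 3) of the merged regions of a chromosome, and cKO-only regions between 0.0859% (X, 1 of 1164) and 0.585% (chromosome 6, 17 of 2904).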
